A study of Mus musculus with 2 samples.

Results

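The 18 genes described here encode protein phosphatases, their subunits and relatives of these, and each carried at least 1 peak of Aiolos in mouse natural killer (NK) cells. They are the genes whose symbol begins with Ppp, Dusp or Ptpn and a digit in the authors' peak list, which gave 20 of 1404 peaks and 18 of 1276 genes. Of these peaks, 11 belonged to 10 Ppp genes, 6 to 5 Dusp genes and 3 to 3 Ptpn genes. Aiolos, a zinc finger transcription factor of the Ikaros family encoded by Ikzf3, was mapped by CUT&RUN, in which an antibody directs a protein A and micrococcal nuclease fusion to the protein and the released DNA is sequenced. The series held 2 libraries, 1 with the antibody against Aiolos and 1 with no primary antibody, both from NK cells of mouse spleen grown in 50 ng/ml interleukin-15 until a sample reached 500000 cells or more. The strain, genotype and age of the mice, and whether animals were pooled, were not among the labels used here. With 1 library per group there was no replicate error, and no test between the libraries was possible.

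Protein phosphatases remove the phosphate that kinases add. Serine and threonine phosphatases work as assemblies of a small set of catalytic subunits (the c symbols of the Ppp family) with many regulatory subunits that choose the substrate and place. The Dusp family includes the MAP kinase phosphatases, which bind MAP kinases and remove phosphate from both threonine and tyrosine of the kinase, and also atypical members without a kinase-binding domain. The Ptpn genes encode tyrosine phosphatases without a transmembrane receptor part. In NK cells, tyrosine phosphatases recruited by inhibitory receptors restrain killing, calcineurin acts on NFAT, and MAP kinase phosphatases limit signalling after activation.

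A peak does not measure expression, so the cell type could be looked at only through the genes that carried peaks. Of 9 NK marker genes, 4 had an assigned peak (Gzmb, Il2rb, Klrb1c and Klrd1), against 0 of 4 B cell, 0 of 5 T cell and 0 of 4 myeloid markers. Beside the 5.38% of all protein-coding genes that had a peak, lists this short do not tell cell types apart: the exact intervals reach 60.2% for 0 of 4 and 52.2% for 0 of 5, and 1 of the 4 NK markers had a promoter peak. The peak list gives no library total, but the tags at each summit could be recovered from the authors' values (a tag is 1 sequenced fragment as the peak caller counted it). The summits of the phosphatase gene peaks held 5 to 19 tags with a median of 9, and 11 of 20 rested on 10 tags or fewer. Fold enrichments, q values and gene assignments are the authors' own. Intervals of a fold are exact Poisson intervals at 95% that cover counting error of the tags only. The background at the summit was held fixed, so its own counting error is not covered. That error can be large: recovered backgrounds of 0.586, 1.17, 1.76 and 2.34 tags lie in equal steps. They may thus rest on very few fragments. The lowest value, 0.186, was shared by 365 of the 1404 peaks (26.0%). Contrasts in background, and in folds that follow from them, are therefore coarse.

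The DNA under the promoter peaks is shown first for the genes whose peaks reach into the RefSeq promoter window, 250 bases before to 50 after a transcription start. Of the 18 genes, 15 matched that table (all but Ppp1r15b, Ppp3cc and Ptpn2), and 7 windows of 6 genes overlapped a peak of their own gene. The lines give the part of this window upstream of the start that lay inside the peak. They run 5′ to 3′ on the gene's strand, from RefSeq on GRCm38.p6. Peak DNA more than 250 bases upstream is not shown, and the summits of the Dusp1 and Dusp6 promoter peaks lay there. Capitals mark a match to TGGGAA on either strand, the core recognised by Ikaros family proteins, which on the other strand reads TTCCCA. The 3 dual-specificity genes shown had the highest folds among Dusp promoter peaks. These parts of their peaks held no match to any of the 5 motifs searched. The parts inside the peaks of Ppp6r3 and of the first Ptpn7 window held none either and are not listed. Ppp1r12c had the highest fold among Ppp promoter peaks, and a match lay 30 bp from its summit. The rest of each peak, beyond the window, was not searched, and the promoter peak of Dusp7 lay wholly beyond its window.
Ppp1r12c, chr7:4501764-4501930, minus strand: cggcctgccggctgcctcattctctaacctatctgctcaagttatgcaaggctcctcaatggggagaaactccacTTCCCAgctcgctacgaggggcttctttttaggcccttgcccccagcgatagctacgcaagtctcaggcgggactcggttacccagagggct
Dusp6, chr10:99262981-99263150, plus strand: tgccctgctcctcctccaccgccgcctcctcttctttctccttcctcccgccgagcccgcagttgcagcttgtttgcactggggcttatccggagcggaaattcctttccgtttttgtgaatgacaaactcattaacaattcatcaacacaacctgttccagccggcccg
Dusp11, chr6:85961763-85961917, minus strand: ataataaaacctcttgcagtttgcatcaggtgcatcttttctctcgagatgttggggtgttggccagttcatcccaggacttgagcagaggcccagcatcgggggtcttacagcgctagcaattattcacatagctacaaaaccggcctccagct
Dusp1, chr17:26508671-26508722, minus strand: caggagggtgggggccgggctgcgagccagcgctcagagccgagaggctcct

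Further matches lay beside the peaks, and 30-base stretches are shown for these, with the match in capitals. The promoter windows of Dusp1 and Ppp1r12c each held TGACGTCA, the cyclic AMP response element bound by CREB and ATF factors, on the side of the peak toward the start. In Dusp1 it began 143 bp upstream of the RefSeq start, and in Ppp1r12c 69 bp upstream. The TGGGAA match of Ppp6r3 began 186 bp upstream of the start, 1 bp beyond the edge of the peak. In Ptpn7 the match shown lay inside the wide peak, 62 bp upstream of the second of its RefSeq starts and 502 bp from the summit.
Dusp1, chr17:26508597-26508626, minus strand: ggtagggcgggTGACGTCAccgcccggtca
Ppp1r12c, chr7:4501731-4501760, minus strand: ggtcggcgccgTGACGTCAatataccgagc
Ppp6r3, chr19:3575918-3575947, minus strand: ccgtcaagaccaTGGGAAaaagaatgcgcc
Ptpn7, chr1:135133235-135133264, plus strand: gagactgggggaTGGGAAggaggagggagg

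Over the 7 windows, 4 held TGGGAA (both windows of Ptpn7, and those of Ppp1r12c and Ppp6r3), against 25.6% of all 32851 RefSeq promoter windows and 21.5% of the 634 windows that overlapped a peak of their own gene. Of these matches, those of Ppp1r12c and the second Ptpn7 window lay inside the peak, and those of Ppp6r3 and the first Ptpn7 window outside it. TGACGTCA was in 2 of the 7, outside the peak in both, against 1.79% of all windows and 4.26% of those that overlapped a peak. The AP-1 site TGANTCA, the ETS core CCGGAAG and the E-box CCACGTG were in 0 of the 7. Their shares were 7.81%, 8.86% and 3.88% of all windows and 4.73%, 17.4% and 5.99% of those that overlapped a peak. All were searched on both strands, and none of the 5 motifs contains another. The windows are few and 2 of them belong to 1 gene, so the counts describe these promoters and say nothing of binding by a factor.

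The first comparison asks how often genes of each class carried a peak. Of 118 protein-coding genes that fit the naming rule, 18 had a peak (15.3%, 95% exact Clopper-Pearson interval 9.30 to 23.0), where 5.38% of all 21900 protein-coding genes had one. By class the shares were 10 of 77 Ppp genes (13.0%, 6.41 to 22.6), 5 of 24 Dusp genes (20.8%, 7.13 to 42.2) and 3 of 17 Ptpn genes (17.6%, 3.80 to 43.4). The 3 intervals overlapped, so an order of the classes was not resolved. The background counts genes silent in NK cells too, since no expression was measured. With promoter peaks alone the shares were 7.79% of Ppp, 16.7% of Dusp and 11.8% of Ptpn genes, beside 3.79% of all protein-coding genes. Counting only peaks within 10 kb of the start left 10.4%, 20.8% and 17.6%, beside 4.57%. The stronger part of the list by q (at or above its median) left 7.79%, 12.5% and 5.88%, beside 2.89%, and the part above the median fold left 6.49%, 12.5% and 5.88%, beside 2.73%.

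**Figure D1:**
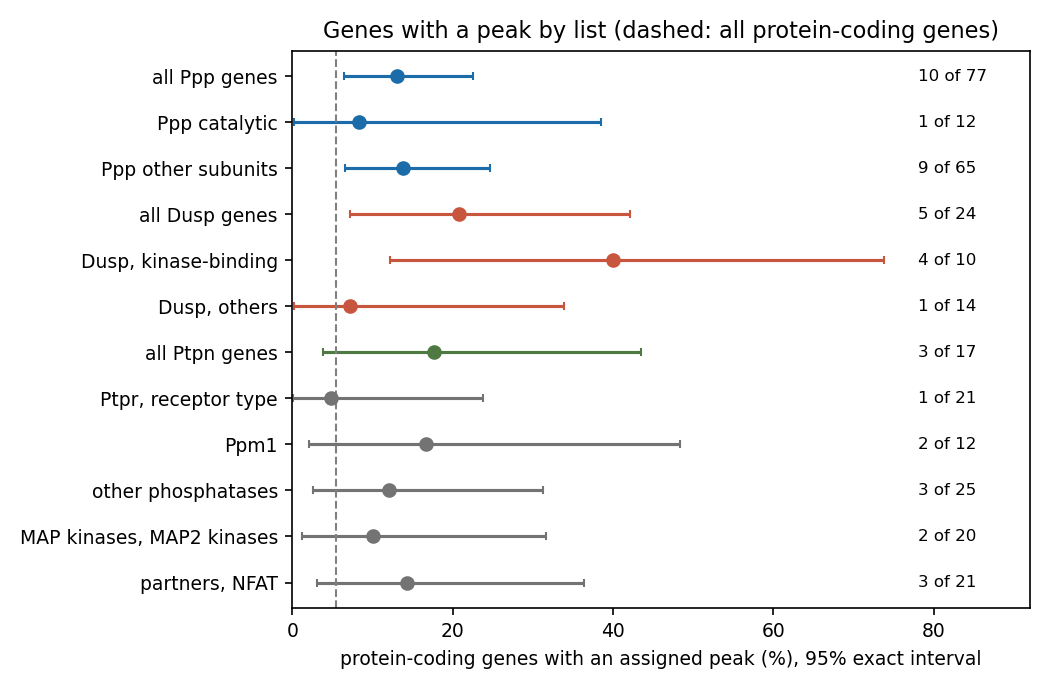
Share of protein-coding genes with an assigned peak, in percent, for the 12 gene lists drawn; points are shares, bars 95% exact Clopper-Pearson intervals, and the dashed line is the 5.38% of all protein-coding genes. The kinase-binding Dusp genes lie farthest to the right with 4 of 10, and their interval, 12.2 to 73.8, is the widest of the 12.

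The genes with a peak were then counted by role within each class. Of the Dusp family, 4 of 10 MAP kinase phosphatases with a kinase-binding domain had a peak (40.0%, 12.2 to 73.8), namely Dusp1, Dusp6, Dusp7 and Dusp10, against 1 of 14 other members, Dusp11 (7.14%, 0.181 to 33.9). These intervals overlapped. Dusp2, Dusp4, Dusp5, Dusp8, Dusp9 and Dusp16, the remaining kinase-binding members, had no assigned peak. Of the Ppp genes, 1 of 12 catalytic subunits had a peak, the calcineurin subunit Ppp3cc (8.33%, 0.211 to 38.5), against 9 of 65 other subunits (13.8%, 6.53 to 24.7). The 5.38% of all protein-coding genes with a peak lies inside the intervals of the other Dusp members and the catalytic subunits. It lies below those of the kinase-binding Dusp genes and the other Ppp subunits, where peaks at any distance count. The 9 other Ppp subunits include Ppp2r3d, whose summits lay 53.0 and 51.6 kb from its start. Within 10 kb of the assigned start, 7 of the 65 had a peak, beside 4.57% of all protein-coding genes. With promoter peaks alone there were 6 of 65, beside 3.79%. Intervals were not computed for these 2 counts, so a difference from the background is not shown for them. Ptpn6 and Ptpn11, which encode the SHP phosphatases that inhibitory NK receptors recruit, and Ptpn22 were among the 14 Ptpn genes without a peak.

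Among the MAP kinase phosphatases, Dusp1 was the only gene with 2 peaks, 1 at its promoter and 1 farther upstream. Dusp1 encodes a nuclear phosphatase of MAP kinases that is induced early after stimulation. Its promoter peak on chromosome 17, at 26508671 to 26508996 on mm10, had its summit 230 bp upstream of the annotated start and a fold enrichment of 5.99 (3.32 to 10.1, 12 tags, -log10 q of 5.10). The other peak, at 26514956 to 26515189, had its summit 6.54 kb upstream, in an intron of a longer Dusp1 transcript in the authors' annotation, and a fold of 8.20 (4.54 to 13.8, 12 tags, -log10 q of 8.38). Both summits held 12 tags, and the recovered background was 1.17 tags at the promoter and 0.586 tags at the upstream peak. The 2 counting intervals overlapped. The nearest other RefSeq gene to the upstream peak, the noncoding Gm34455, was 10725 bp away, against 6600 bp to Dusp1.

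The MAP kinase phosphatase Dusp6, a feedback inhibitor of growth factor signalling, had the strongest promoter peak of the family. It lay on chromosome 10 at 99262795 to 99263150, with the summit 325 bp upstream, a fold of 7.75 (3.96 to 14.0, 9 tags) and a -log10 q of 7.50. Dusp7, a close relative, had a peak of 5.90-fold (2.70 to 11.9, 6 tags) on chromosome 9 at 106367980 to 106368186. That summit lay 590 bp upstream, the farthest of the promoter summits described here. Dusp10, a phosphatase of p38 and JNK, was credited with an intergenic peak of 5.63-fold (2.58 to 11.3, 6 tags) on chromosome 1 at 184005539 to 184005779. Its summit was 7.55 kb upstream of the transcript the authors assigned, but 28.7 kb separate the peak from Dusp10 as RefSeq places it, and the noncoding Gm39725 is nearer at 7656 bp. Dusp11, which acts on the 5′ phosphates of RNA and not on MAP kinases, had a promoter peak of 6.75-fold (3.22 to 13.0, 7 tags) on chromosome 6 at 85961763 to 85961981, with the summit 214 bp upstream.

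The PP1 regulatory subunits made up 5 of the 10 Ppp genes, out of 45 PP1 genes (11.1%, 3.71 to 24.1), an interval that holds the 5.38% of all protein-coding genes. Ppp1r12c, a member of the myosin phosphatase targeting family, had the strongest peak among Ppp promoters, on chromosome 7 at 4501764 to 4501983, with 8.20-fold (4.54 to 13.8, 12 tags), a -log10 q of 8.38 and its summit 200 bp upstream. The promoter peak of Ppp1r15b, the constitutive subunit that directs PP1 to the translation factor eIF2 alpha, had more tags and a lower fold: 14 tags over a background of 1.76 gave 5.44-fold (3.14 to 8.88). Ppp1r13l, which encodes the p53 inhibitor iASPP, had a promoter peak of 5.05-fold (2.41 to 9.73, 7 tags) that overlapped the assigned start. RefSeq also places the protein-coding Cd3eap 252 bp from the centre of this peak. From the Ppp1r13l start in the RefSeq promoter table, the summit lay at -1615 bp. The peaks of the remaining 2 PP1 subunits lay inside genes. Ppp1r16b, a membrane-bound PP1 subunit known from endothelium, carried an intronic peak of 6.75-fold (3.22 to 13.0), 23.5 kb downstream of the assigned start. The peak of Ppp1r18, the actin-binding phostensin of blood cells, was intronic too, 2.39 kb downstream, and had the lowest fold of the 20, 4.61 (2.36 to 8.33, 9 tags).

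PP2A subunits gave 3 of 16 genes (18.8%, 4.05 to 45.6), again an interval that holds 5.38%. Ppp2r5a and Ppp2r5c, B prime subunits that select PP2A substrates, were 2 of the 5 Ppp2r5 genes (5.27 to 85.3%) and had promoter peaks. The Ppp2r5a peak, on chromosome 1 at 191397363 to 191397578 with the summit 470 bp upstream, held the most tags of the 20, 19, over the highest background, 2.34 tags, and so had a fold of only 5.98 (3.72 to 9.18, -log10 q of 7.43). Ppp2r5c had 5.90-fold (2.70 to 11.9, 6 tags) with the summit 172 bp downstream of the start of an internal transcript. The noncoding Gm19605 also spans the centre of this Ppp2r5c peak. The third gene, Ppp2r3d, was assigned 2 peaks on chromosome 9, at 124423471 to 124424082 with 9.88-fold (5.47 to 16.7, 12 tags, -log10 q of 11.5) and at 124424850 to 124425419 with 5.53-fold (2.99 to 9.52, 11 tags). The first is the highest fold of the 20, but the summits lay 53.0 and 51.6 kb past the Ppp2r3d start, and in RefSeq the centres of both peaks fall within Gm20783, and that of the first also within the noncoding 4930526I15Rik. Without these peaks the highest fold was that of Ptpn7, and the Ppp median was 5.98 as before.

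The other serine and threonine phosphatases had 2 genes with a peak. Ppp6r3, a regulatory subunit of PP6, showed 7.47-fold enrichment at its promoter on chromosome 19, at 3575936 to 3576153 (4.04 to 12.9, 11 tags), with a -log10 q of 7.04. Its summit was 262 bp upstream, and a RefSeq tRNA gene, n-TAagc9, began 219 bp from the peak centre. Ppp3cc, the gamma isoform of the calcineurin catalytic subunit, carried a first-intron peak of 6.75-fold (3.22 to 13.0, 7 tags), on chromosome 14 at 70283802 to 70284276. That summit was 5.44 kb downstream of the start. Of 5 calcineurin genes it was the only one with a peak (0.505 to 71.6%), and 0 of 6 PP4 genes had one, which allows a share of up to 45.9%. The 5.38% of all protein-coding genes lies inside both intervals.

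Of the tyrosine phosphatases, Ptpn7 had the strongest and widest peak. Ptpn7 encodes HePTP, a phosphatase of blood cells that binds MAP kinases and so shares substrates with the MAP kinase phosphatases above. Its peak on chromosome 1, at 135132666 to 135133410, was 745 bp wide against a median of 233 bp for the 20, and ran over both RefSeq starts in the promoter table. The summit was 45 bp downstream of the assigned start and the fold 8.83 (5.0 to 14.6, 13 tags, -log10 q of 9.66). RefSeq also places the transcribed pseudogene Ptprv 463 bp from the peak centre.

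Ptpn2 and Ptpn3 had weaker peaks. Ptpn2, which encodes TC-PTP, a phosphatase of JAK and STAT proteins downstream of cytokine receptors, had a promoter peak of 5.63-fold (2.58 to 11.3, 6 tags, -log10 q of 4.0) on chromosome 18 at 67724718 to 67724932, with the summit 203 bp upstream. Ptpn3, a phosphatase with FERM and PDZ domains, had a peak of 4.88-fold (2.13 to 10.3) with 5 tags, the fewest of the 20, on chromosome 4 at 57306940 to 57307157. It lay 5.16 kb upstream of the assigned start but inside Ptpn3 as RefSeq spans it, where the noncoding Gm12536 overlaps.

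In strength the classes could not be told apart. The median fold was 5.98 for the 11 Ppp peaks (range 4.61 to 9.88), 6.37 for the 6 Dusp peaks (5.63 to 8.20) and 5.63 for the 3 Ptpn peaks (4.88 to 8.83), beside 6.44 for all 1404 peaks. Of the 20 peaks, 9 were above that overall median, and 0 were among the 50 strongest peaks of the list. All 190 pairs of counting intervals overlapped, and each interval included 6.44. Equal folds arose from equal whole tag numbers over the same background: Ppp3cc, Ppp1r16b and Dusp11 each had 7 tags over 0.186, the lowest background in the list, and the upstream Dusp1 peak and Ppp1r12c each had 12 tags over 0.586.

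**Figure D2:**
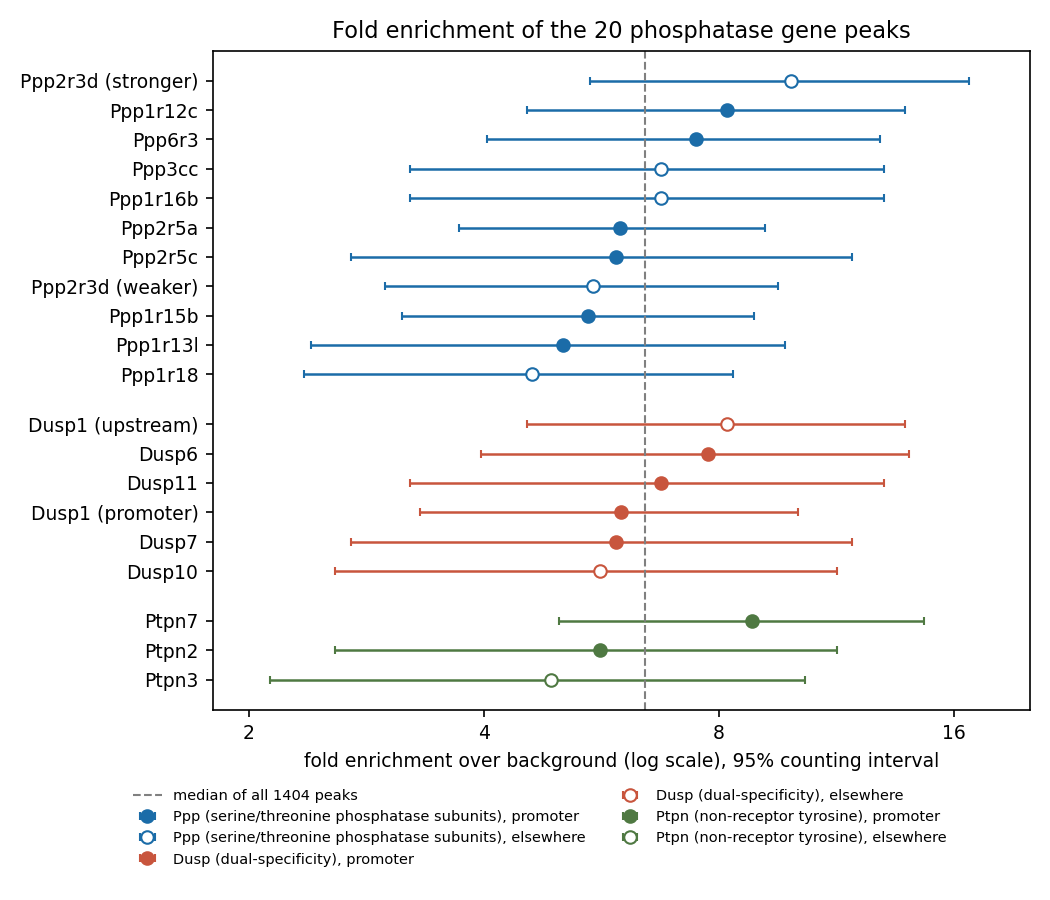
Fold enrichment on a log scale for each of the 20 peaks, ordered within its class, with 95% exact Poisson counting intervals; filled points are promoter peaks, open points lie elsewhere, and the dashed line is the median of all peaks, 6.44. Every interval crosses the dashed line, and the points run from 4.61 for Ppp1r18 to 9.88 for Ppp2r3d.

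The order by tags differed from the order by fold. Ppp2r5a ranked 32nd of 1404 peaks by tags and 791st by fold, and Ppp1r15b 153rd by tags and 1012th by fold. These 2 peaks had the highest backgrounds of the 20, 2.34 and 1.76 tags, on the coarse scale described above. Ptpn7 ranked near the front by both, 196th by tags and 236th by fold. The median number of tags was 11 for Ppp, 8 for Dusp and 6 for Ptpn peaks, and 8 over the whole list.

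**Figure D3:**
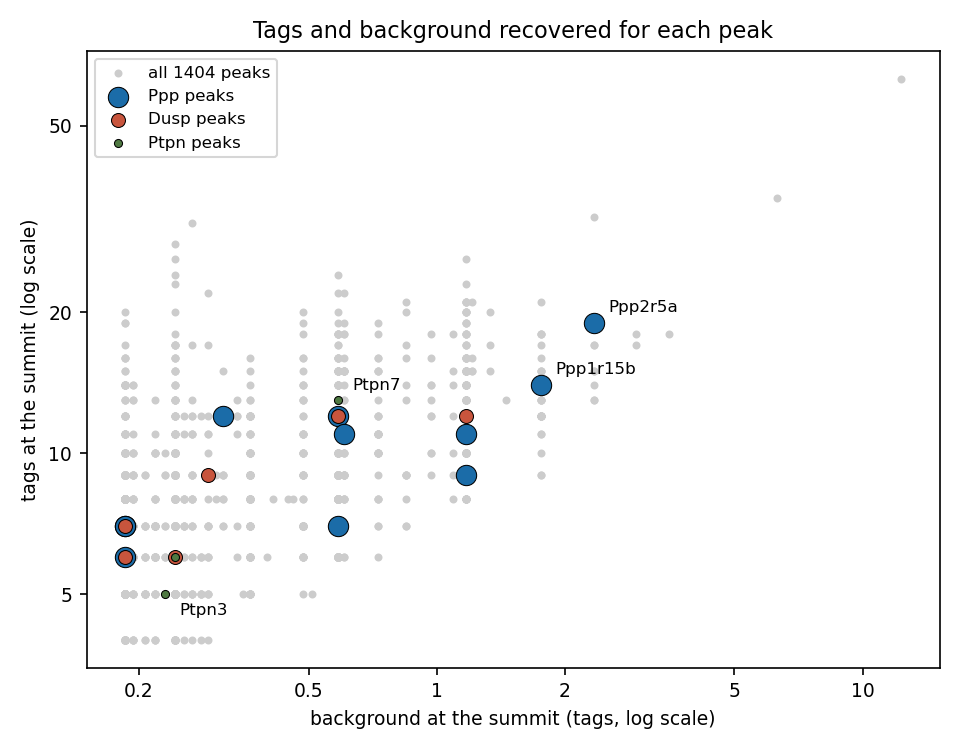
Tags at the summit against recovered background in tags, both on log scales, for all 1404 peaks (grey) and the Ppp, Dusp and Ptpn peaks, whose markers have 3 sizes so that peaks with equal values show as rings. Ppp2r5a and Ppp1r15b lie to the right with 19 and 14 tags over backgrounds of 2.34 and 1.76, and Ptpn3 lies lowest with 5 tags.

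In position, 12 of the 20 peaks were promoter peaks, with the centre within 1000 bp of the annotated start (60.0%, 95% exact interval 36.1 to 80.9), beside 64.8% of all peaks. The shares were 6 of 11 for Ppp (54.5%, 23.4 to 83.3), 4 of 6 for Dusp (66.7%, 22.3 to 95.7) and 2 of 3 for Ptpn (66.7%, 9.43 to 99.2). Without the 2 distant peaks assigned to Ppp2r3d the Ppp share was 66.7% too. Outside promoters lay 5 Ppp peaks, 2 Dusp peaks and 1 Ptpn peak. Promoter peaks had a median fold of 5.98 and the 8 others 6.19, where all promoter peaks had 6.60 and all others 5.90.

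Most promoter summits lay upstream of the start. Of the 12, 10 were upstream (83.3%, 51.6 to 97.9), beside 55.9% of all 910 promoter peaks, and all 10 were more than 100 bp away. The median summit position was -208.5 bp, against -79.5 bp over all promoter peaks, and 8 of the 12 fell 101 to 350 bp upstream, where 35.6% of all promoter summits fell. The 4 Dusp summits were all upstream, at 214, 230, 325 and 590 bp. The exceptions were Ppp2r5c at 172 bp and Ptpn7 at 45 bp downstream. Only 2 of the 12 peaks, those of Ptpn7 and Ppp1r13l, overlapped the start itself (16.7%), against 52.5% of all promoter peaks. These positions depend on the transcript assigned. The Ppp1r12c and Ppp6r3 summits, counted here as upstream, lay inside their genes as RefSeq spans them. The Ppp6r3 peak crossed the 5′ end of that span. How often this holds for all promoter peaks was not counted. The window of 101 to 350 bp was set after the positions had been seen, and no test was made.

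**Figure D4:**
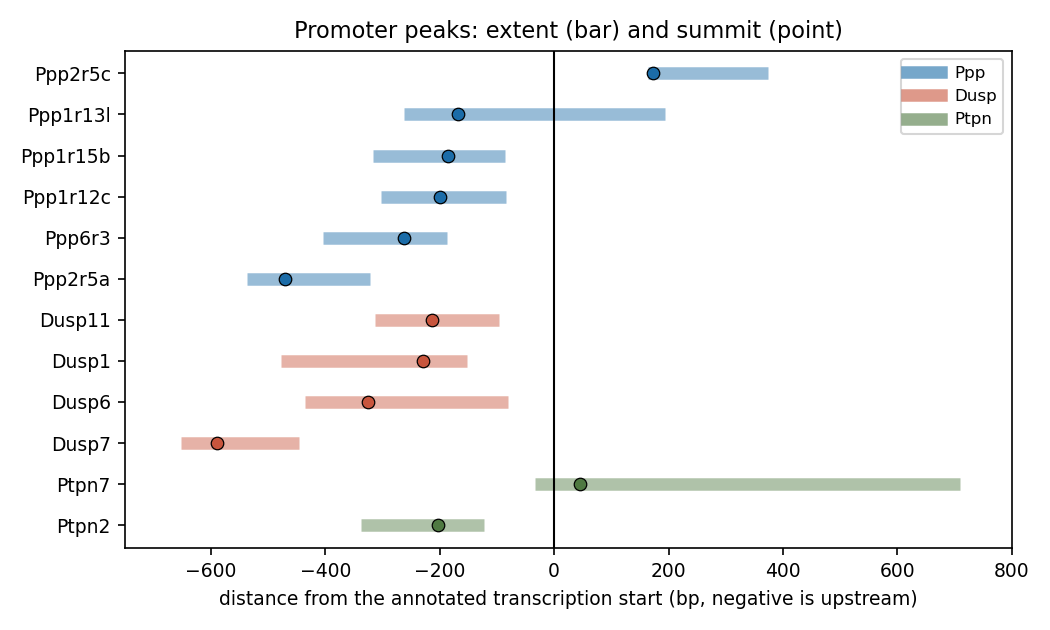
Extent (bar) and summit (point) of the 12 promoter peaks in bp from the annotated transcription start, drawn along the direction of transcription, with negative values upstream. The points of 10 genes lie left of the line at 0, and only the bars of Ptpn7 and Ppp1r13l cross it.

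Phosphatases outside the naming rule were counted for comparison, again beside the 5.38% of all protein-coding genes, which lies inside the interval of each list. Of 21 receptor type tyrosine phosphatases, 1 had a peak (4.76%, 0.120 to 23.8): Ptpre, with an upstream peak of 7.59-fold and another of 6.91-fold. Of 12 metal-dependent Ppm1 phosphatases, 2 had one (16.7%, 2.09 to 48.4), Ppm1h at 10.1-fold in an intron and Ppm1g at 4.87-fold at its promoter. Among 25 other phosphatases there were 3 (2.55 to 31.2%), Eya2 with a promoter peak of 11.3-fold (6.38 to 18.7), Ctdsp2 at 6.75-fold and Inpp5d, the SHIP1 inositol phosphatase of blood cells, with 2 intronic peaks of up to 7.24-fold.

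On the substrate side, 2 of 20 MAP kinases and MAP kinase kinases had a peak (95% interval of the share 1.23 to 31.7%), Map2k2 at 7.39-fold at its promoter and Mapk6 at 4.10-fold in an intron. Of 21 phosphatase partners and calcineurin targets, 3 had a peak (14.3%, 3.05 to 36.3). Both intervals hold the background share of 5.38%. These partner genes were Ensa, an inhibitor of PP2A in mitosis, at 7.37-fold at its promoter, Nfatc3 at 5.05-fold at its promoter and Nfatc1 at 4.83-fold in an intron.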

How the data were processed

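The single peak list deposited for the series was analysed. It rests on 1 library with antibody and 1 without, so nothing was pooled and no groups were tested. The submitters' processing notes name MACS2, Bowtie2, Picard, SAMtools and mm10 with no role or order, and their settings were not stated there. The columns, per the file headers, are a signal value taken here as the fold (a ratio), the -log10 of p and q, a score derived from q (not used), and an annotated transcript, all deposited by the authors. The fold was read as (tags + 1)/(background + 1) and p as a Poisson tail, and both were solved for whole tags in all 1404 peaks to within 1.75e-05 in -log10 p. The solver was checked on simulated data. Duplicate fragments would make the intervals too narrow.

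Positions are 1-based, and distances run along the strand of the annotated transcript. Member genes were counted among protein-coding genes of the RefSeq table (GRCm38.p6), where the gene identifiers of all 20 peaks matched. 11 further names that fit the rule are pseudogenes or noncoding and entered only as an alternative. Intervals came from scipy 1.17.1. The members, lists and rules were chosen with earlier results of these data known, so no list was tested. The rule named every member with a peak, with fuller values for the 4 strongest genes of each class and for genes with 2 peaks. Some of these values, such as q for Dusp7 and Dusp11, were left out of the text. The motifs were part of that plan, and the comparison of tag and fold ranks was added later.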

Additional observations from a re-analysis of the deposited data

How the results depend on the processing

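The 10 shares and medians by class were recomputed under 50 alternatives, 45 planned and 5 added after the data had been seen, and 46 stayed within the 95% interval of the reported value (for the Ptpn median fold, within the range of its 3 peaks). Medians in tags were held to the same interval after each was divided by the median of all peaks. The intervals are wide, so staying inside them says little about stability. With only peaks above the median fold, the Ppp share fell from 13.0% to 6.49% and the Ptpn share from 17.6% to 5.88%, and both still counted as inside. The promoter share of Ptpn peaks was 100% in the stronger part of the list by q and 100% above the median fold, since by construction only Ptpn7 was left. With tags in place of fold, the Ppp median was 11 tags and the Ptpn median 6 tags, beside 8 tags over all peaks. The Ppp median was thus above that of the list by tags and below it by fold. The median background, which enters the fold, was 0.586 tags for Ppp peaks and 0.267 tags over all peaks. The cause of the higher background was not tested. Promoter summits lay upstream in 83.3% of the stronger part by q and in 80.0% of 10 peaks with a RefSeq start. Depth limits single values, since the interval of 12 tags over 0.586 runs from 4.54-fold to 13.8-fold. No paired analysis was possible because each group has a single library.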
